A study of Homo sapiens with 12 samples.

Results

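The dual-specificity phosphatase (DUSP), Sprouty (SPRY) and SPRED genes of H1299 cells were compared between hyperoxia and normoxia. They were taken as every row of the deposited gene table whose symbol is DUSP with a number, SPRY1 to SPRY4 or SPRED1 to SPRED3, which gave 31 genes of 59577. H1299 is an established human lung cancer line with a known activating mutation of NRAS. Its RNA was measured after 24 h of hyperoxia (60% O2, 5% CO2 and 35% N2, 6 samples) and in normoxia (21% O2, 5% CO2 and 74% N2, 6 samples). The comparison asks which transcripts differ after a day of raised oxygen in this 1 line. All values are TPM, an abundance per transcript length scaled to a common total, so levels can be set side by side between genes. TPM keeps no sequencing depth, which is therefore unknown. Whether the 6 samples per condition were grown as separate cultures is not stated in the labels, so p-values measure the spread among these 12 samples alone, which may be technical.

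MAP kinases are the last kinases of cascades that carry growth factor and stress signals to the nucleus, with ERK, JNK and p38 as the main branches. The MAP kinase phosphatases among the DUSP proteins switch these kinases off by removing phosphate from the threonine and the tyrosine of their activation loop. Many are themselves transcribed in response to the pathway that they restrain. Sprouty and SPRED proteins act further upstream, between the receptor and RAF, and SPRED proteins bring the RAS inhibitor neurofibromin to the membrane. The atypical DUSP proteins are small, lack the kinase-binding domain of the classical phosphatases, and many have substrates other than MAP kinases.

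RefSeq promoter windows (GRCh38.p14) were matched for 25 of the 31 genes; the others were DUSP4, DUSP5, DUSP12, DUSP13, DUSP26 and DUSP27. The 250 bases before the start of 3 phosphatase genes are shown, DUSP1 and DUSP8 because they held the full cAMP response element TGACGTCA and DUSP3 because it rose and held only the core. Capitals mark the core TGACG on either strand (TGACG or CGTCA). The full element reads as the core on both strands.
DUSP1, chr5:172771196-172771445, minus strand: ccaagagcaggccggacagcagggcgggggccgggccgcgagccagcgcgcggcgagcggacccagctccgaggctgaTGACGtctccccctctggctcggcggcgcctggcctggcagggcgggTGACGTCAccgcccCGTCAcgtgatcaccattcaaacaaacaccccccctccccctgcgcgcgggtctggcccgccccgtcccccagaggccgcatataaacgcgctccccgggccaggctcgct
DUSP8, chr11:1572272-1572521, minus strand: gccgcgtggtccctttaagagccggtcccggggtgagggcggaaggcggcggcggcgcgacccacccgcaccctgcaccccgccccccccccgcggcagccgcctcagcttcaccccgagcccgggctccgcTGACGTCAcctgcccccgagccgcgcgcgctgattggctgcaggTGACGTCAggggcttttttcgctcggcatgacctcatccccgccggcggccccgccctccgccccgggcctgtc
DUSP3, chr17:43778978-43779227, minus strand: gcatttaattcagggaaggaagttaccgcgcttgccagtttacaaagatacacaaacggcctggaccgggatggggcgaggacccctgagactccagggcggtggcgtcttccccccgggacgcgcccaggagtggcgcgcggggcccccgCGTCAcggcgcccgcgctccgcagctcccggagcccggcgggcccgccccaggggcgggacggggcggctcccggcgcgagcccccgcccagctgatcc

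The full element TGACGTCA was found for 2 of the 25 genes, in 2 of the 40 member windows, and 1.65% of all 35116 promoter windows of the same length held it. The core TGACG was found for 9 of the 25 genes, in 10 of the 40 member windows and in 21.2% of all windows. Of the 9, DUSP1 and DUSP3 rose in the test given below, while DUSP15, DUSP28, SPRY2 and SPRY4 did not pass. DUSP8, DUSP21 and SPRY3 were too low to be tested. DUSP7, DUSP11 and DUSP14 rose and their windows held no core. The AP-1 motif TGANTCA was matched for SPRED3 and SPRY3, in 2 of the 40 member windows and in 6.57% of all windows. The serum response motif known as the CArG box was matched for 0 of the 25 genes and in 1.16% of all windows. Further motifs were searched, and not all are shown. Among them TGACNNNGC, the core of the antioxidant response element, was matched for DUSP1, DUSP15, DUSP22 and SPRY4. It lay in 4 of the 40 member windows and in 10.9% of all windows. The hypoxia response core ACGTG lay in 5 of the 40 member windows, that of DUSP1 among them, and in 18.5% of all windows. Both strands were searched, some genes have several of the 40 member windows, and a match describes letters only.

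Of the 31 genes, 22 reached a mean of 1 TPM over the 12 samples and were tested. In hyperoxia 6 of the 22 rose (27.3%), 0 fell and 16 did not pass the test (limma on log2(TPM + 1), Benjamini-Hochberg adjusted p under 0.05 over all genes). Over all 14520 genes tested, 11.7% rose and 5.63% fell. The genes that rose were the nuclear phosphatase genes DUSP1 and DUSP5, the cytosolic ERK phosphatase gene DUSP7, and DUSP3, DUSP11 and DUSP14 of the atypical class. None of the 6 tested Sprouty and SPRED genes passed in limma. The median log2 fold change of the 22 genes was 0.11, against 0.03 over all genes tested. With hyperoxia below and no overlap there were 0 members, against 2.58% of all genes. By limma 0 members were lower at an unadjusted p under 0.05, against 1584 of the 14520 genes tested. The exact rank-sum test called 5 members higher and 0 lower, against 1203 and 515 of the 14520 genes. In bulk RNA, fewer cells with a transcript and less transcript per cell cannot be told apart.

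Over all genes, the first principal component held 20.7% of the variance and set all 6 hyperoxia samples (-19.79 to -11.26) apart from all 6 normoxia samples. Within normoxia, replicates 4 to 6 (18.71 to 33.29) also stood apart from replicates 1 to 3 (5.123 to 9.443) on it. Of all 2516 calls, 67.5% were higher in hyperoxia, but 50% were with median-of-ratios scaling and 49.9% with TMM factors. The keratin genes KRT8 and KRT18 and the mesenchymal gene VIM were high, with VIM at 3004 ± 242 TPM in hyperoxia and 3351 ± 189 TPM in normoxia (SD, n = 6 each). The epithelial genes EPCAM and CDH1 were at or below 0.28 and 0.13 TPM in every sample. The 5 blood markers summed to at most 0.25 TPM in a hyperoxia sample and 0.31 TPM in a normoxia sample, and 2 of them were at 0 in all samples.

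**Figure D1:**
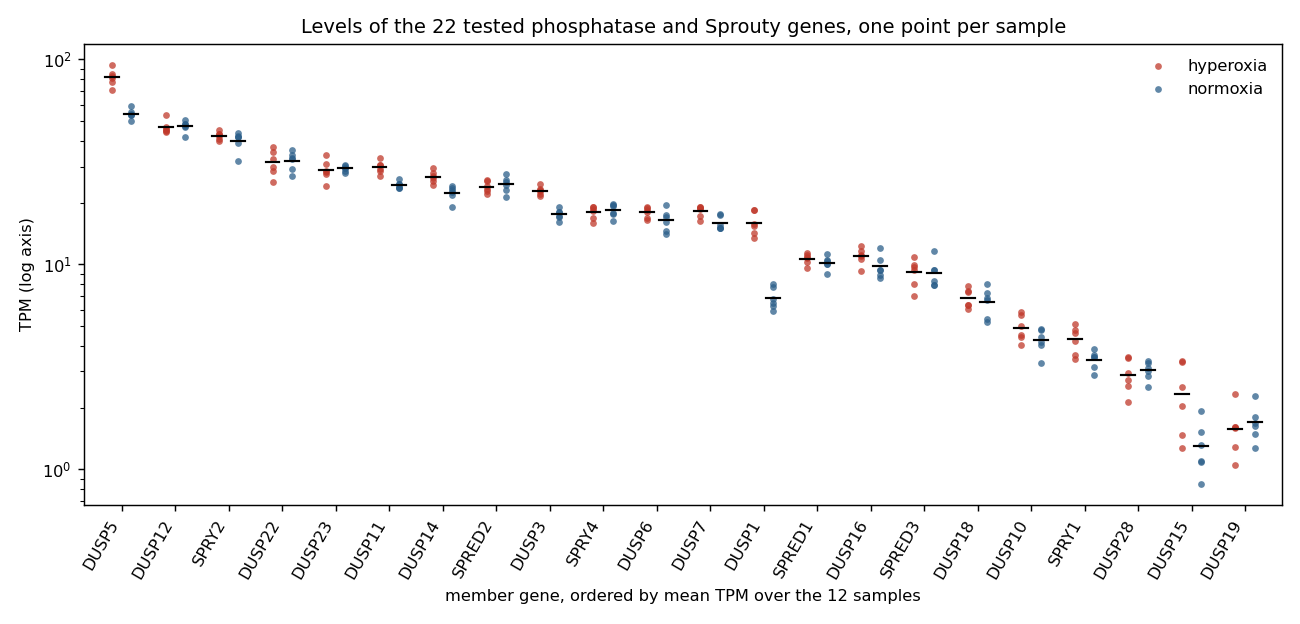
TPM on a log axis (y) for the 22 tested genes (x, ordered by mean TPM), with 1 point per sample, the 6 hyperoxia samples left of the 6 normoxia samples of each gene, and black bars at the group means. DUSP5 was the highest gene in all 12 samples, and the DUSP1 groups are separated by a ratio of 2.32.

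DUSP5 was the most abundant of the 31 genes in each of the 12 samples, followed by DUSP12 and SPRY2. In all 12 samples DUSP5 lay above DUSP12, DUSP12 above SPRY2, and SPRY2 above DUSP22. By mean level, 9 genes had at least 20 TPM, 8 lay between 5 and 20 TPM, 5 between 1 and 5 TPM, 6 above 0 but under 1 TPM, and 3 were listed at 0. Neighbours further down often changed places between samples. DUSP6 exceeded DUSP7 in 2 of 6 hyperoxia samples and 2 of 6 normoxia samples, and DUSP14 exceeded SPRED2 in 4 of 6 hyperoxia samples and 1 of 6 normoxia samples. DUSP1 held place 13 in the hyperoxia order and place 16 in the normoxia order, and it exceeded SPRED1 in 6 of 6 hyperoxia samples and 0 of 6 normoxia samples. Summed over the 31 genes, the level was 461 ± 11.8 TPM in hyperoxia and 400.3 ± 17.1 TPM in normoxia (SD, n = 6 each).

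The inducible phosphatases of the nucleus are DUSP1, which acts on JNK, p38 and ERK, DUSP5, which is specific for ERK, and DUSP2 and DUSP4. Both tested genes of this class, DUSP1 and DUSP5, rose, against 11.7% of all genes tested, and DUSP2 and DUSP4 were too low to be tested. DUSP1 (ENSG00000120129, chromosome 5) measured from 13.4 to 18.4 TPM with a median of 15.5 TPM in hyperoxia, and from 5.9 to 8 TPM with a median of 6.64 TPM in normoxia. The groups did not overlap, which held with hyperoxia above for 5 of the 22 members (22.7%) and for 6.2% of all genes tested. Its mean was 15.9 ± 2.08 TPM in hyperoxia and 6.86 ± 0.846 TPM in normoxia (SD, n = 6 each), a ratio of 2.32. Its log2 fold change of 1.10 (SE 0.09) was the largest among the 22 (limma, Benjamini-Hochberg adjusted p = 5.97e-06).

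DUSP5 (ENSG00000138166, chromosome 10) measured from 71.3 to 93.97 TPM with a median of 82.4 TPM in hyperoxia, and from 50.2 to 59.1 TPM with a median of 53.8 TPM in normoxia. All hyperoxia samples lay above all normoxia samples here too. The means were 82.03 ± 7.597 TPM in hyperoxia and 54.3 ± 2.94 TPM in normoxia (SD, n = 6 each), and the log2 fold change was 0.58 (limma, Benjamini-Hochberg adjusted p = 3.19e-05, SE 0.06). In TPM, the gap between the group means was wider for DUSP5 than for any other of the 31 genes. Its pseudogene copy DUSP5P1, which could share reads with it, averaged 2.85 TPM in hyperoxia and 3.44 TPM in normoxia.

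DUSP2 (ENSG00000158050, chromosome 2), a phosphatase gene best known from activated immune cells, was too low to be tested. It measured from 0.54 to 1.13 TPM with a median of 0.93 TPM in hyperoxia, and from 0.16 to 0.74 TPM with a median of 0.44 TPM in normoxia, and the groups overlapped. The ratio of the mean TPM was 2.03. With no filter on low values its log2 fold change, taken after adding 1 TPM and so shrunken at this level, was 0.40 (limma, Benjamini-Hochberg adjusted p = 0.0900), and the authors' deposited table gives it a fold of 1.98 and an adjusted p of 0.0202. DUSP4, which encodes an ERK and JNK phosphatase, reached at most 0.16 TPM in hyperoxia and 0.07 TPM in normoxia. The nuclear class in these cells was thus almost all DUSP5 and DUSP1 transcript.

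**Figure D2:**
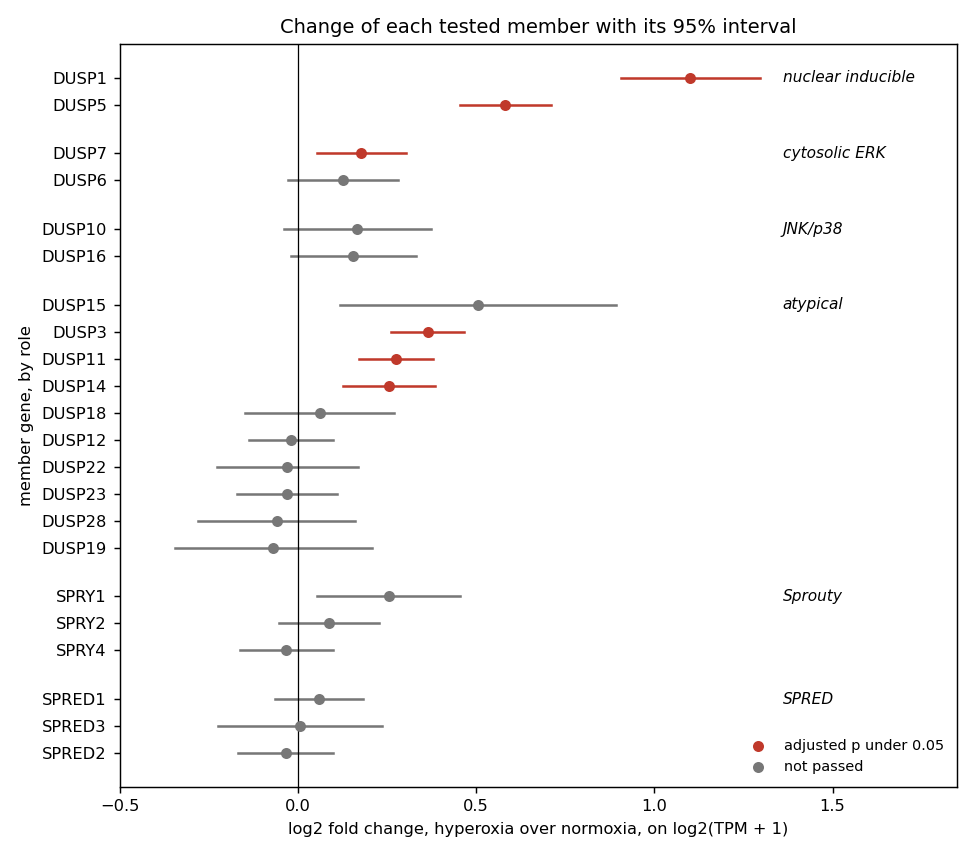
Log2 fold change of hyperoxia over normoxia on the log2(TPM + 1) scale (x) for the 22 tested genes (y, grouped by role), with 95% intervals from limma over 6 hyperoxia and 6 normoxia samples. Coloured points are the 6 genes with an adjusted p under 0.05, of which DUSP1 lies farthest to the right at 1.10, and grey points are the 16 that did not pass.

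The cytosolic phosphatases that act on ERK are DUSP6, DUSP7 and DUSP9, of which DUSP6 is a widely used marker of ERK activity. DUSP6 (ENSG00000139318, chromosome 12) measured from 16.4 to 18.9 TPM with a median of 18.3 TPM in hyperoxia, and from 14.02 to 19.4 TPM with a median of 16.6 TPM in normoxia. The highest of all 12 values belonged to normoxia replicate 1, so the groups overlapped. Its log2 fold change was 0.13 with a 95% interval from -0.03 to 0.28 (limma, Benjamini-Hochberg adjusted p = 0.257). The authors' deposited table gives DUSP6 a fold of 1.16 and an adjusted p of 0.000249, so its call differed between that table and the test on TPM.

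DUSP7 (ENSG00000164086, chromosome 3) measured from 16.3 to 19.1 TPM with a median of 18.7 TPM in hyperoxia, and from 14.99 to 17.6 TPM with a median of 15.3 TPM in normoxia, and the groups overlapped. Its log2 fold change of 0.18 (SE 0.06) passed by a small margin (limma, Benjamini-Hochberg adjusted p = 0.0487). The call was lost in 16 of 23 alternative settings, over which the adjusted p ranged from 0.0262 to 0.115 (limma or the exact rank-sum test). Among these were TMM factors (limma, adjusted p = 0.102), a replicate block (limma, adjusted p = 0.0872) and the fits without hyperoxia replicates 1, 2, 3, 4 or 5 or normoxia replicates 1, 2, 3 or 5. DUSP9 reached at most 0.12 TPM in hyperoxia and 0.12 TPM in normoxia.

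Within each sample, DUSP1 and DUSP5 were also set against DUSP6 and SPRY2. These 3 pairs were chosen with the values known, so the ratios are a description with no test. The log2 ratio of DUSP1 to DUSP6 TPM was -0.18 ± 0.24 in hyperoxia and -1.26 ± 0.27 in normoxia (SD, n = 6 each), a difference of 1.08. For DUSP5 over DUSP6 it was 2.19 ± 0.21 in hyperoxia and 1.73 ± 0.17 in normoxia, a difference of 0.46. For DUSP5 over SPRY2 it was 0.95 ± 0.14 in hyperoxia and 0.44 ± 0.18 in normoxia, a difference of 0.50.

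The phosphatases that prefer JNK and p38 are DUSP8, DUSP10 and DUSP16, and neither tested gene of this class passed. Over all genes tested 17.3% passed in either direction, so this count says little about the class. DUSP10 (ENSG00000143507, chromosome 1) measured from 4.05 to 5.83 TPM with a median of 4.75 TPM in hyperoxia, and from 3.31 to 4.81 TPM with a median of 4.29 TPM in normoxia (log2 fold change 0.17, limma, Benjamini-Hochberg adjusted p = 0.262). DUSP16 (ENSG00000111266, chromosome 12) measured from 9.31 to 12.3 TPM with a median of 11.1 TPM in hyperoxia, and from 8.59 to 12 TPM with a median of 9.37 TPM in normoxia (log2 fold change 0.16, limma, Benjamini-Hochberg adjusted p = 0.213). Both pairs of groups overlapped. The authors' deposited table gives DUSP16 a fold of 1.15 and an adjusted p of 5.84e-05.

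DUSP8 (ENSG00000184545, chromosome 11), whose promoter window holds the full cAMP response element at a pair of places, was under the minimum for the test. It measured from 0.48 to 1.14 TPM with a median of 0.8 TPM in hyperoxia, and from 0.27 to 0.67 TPM with a median of 0.325 TPM in normoxia. The highest normoxia value came from replicate 3 and lay above the lowest hyperoxia samples. The ratio of the mean TPM was 2.05. With no filter its log2 fold change, again after adding 1 TPM, was 0.36 (limma, Benjamini-Hochberg adjusted p = 0.0751), and the authors' deposited table lists a fold of 1.75 with an adjusted p of 0.000811. The pseudogene copy DUSP8P5 averaged 1.66 TPM in hyperoxia and 1.66 TPM in normoxia, and since the copies could share reads the level of DUSP8 is uncertain.

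Of the 14 atypical genes 10 were tested and 3 rose, each without overlap between the groups. Both shares were 30%, against 11.7% higher and 6.2% not overlapping with hyperoxia above over all genes tested. DUSP3 (ENSG00000108861, chromosome 17), a small phosphatase that acts on ERK and JNK, measured from 21.4 to 24.6 TPM with a median of 23.02 TPM in hyperoxia, and from 16.1 to 19.1 TPM with a median of 17.6 TPM in normoxia. The change was 0.36 on the log2 scale (limma, Benjamini-Hochberg adjusted p = 0.000265, SE 0.05). Its promoter window is the one shown with the core of the cAMP response element alone.

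DUSP11 (ENSG00000144048, chromosome 2) encodes a phosphatase of RNA, which removes phosphates from the 5′ end of transcripts rather than from kinases. It measured from 27.02 to 33.03 TPM with a median of 29.8 TPM in hyperoxia, and from 23.5 to 26.2 TPM with a median of 24.2 TPM in normoxia (log2 fold change 0.27, limma, Benjamini-Hochberg adjusted p = 0.00204, SE 0.05). DUSP14 (ENSG00000276023, chromosome 17), a negative regulator of T cell receptor signalling in immune cells, measured from 24.5 to 29.4 TPM with a median of 26.6 TPM in hyperoxia, and from 18.98 to 24.1 TPM with a median of 22.7 TPM in normoxia. This gave a log2 difference of 0.26 (limma, Benjamini-Hochberg adjusted p = 0.0107, SE 0.06). For both genes the lowest hyperoxia sample lay just above the highest normoxia sample.

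DUSP15 (ENSG00000149599, chromosome 20), known from the differentiation of myelin-forming cells, varied more within both groups than any other tested member. It measured from 1.27 to 3.37 TPM with a median of 2.27 TPM in hyperoxia, and from 0.85 to 1.92 TPM with a median of 1.21 TPM in normoxia, and its coefficient of variation was 38.7% in hyperoxia and 29.2% in normoxia. Hyperoxia replicates 1, 4, 5 and 6 lay above every normoxia sample, while replicates 2 and 3 lay within the normoxia range. Its log2 fold change of 0.51 (SE 0.18) did not pass (limma, Benjamini-Hochberg adjusted p = 0.0698), although it did in 2 of 22 alternatives, quantile normalisation and the fit without hyperoxia replicate 3. Over the 22 its adjusted p ranged from 0.0328 to 0.169 (limma or the exact rank-sum test). The authors' deposited table gives DUSP15 a fold of 1.81 and an adjusted p of 0.00599.

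The 3 most abundant of the other atypical genes did not pass and overlapped between the groups. DUSP12, whose yeast counterpart acts in the assembly of the large ribosomal subunit, averaged 46.7 ± 3.56 TPM in hyperoxia and 47.3 ± 2.95 TPM in normoxia (SD, n = 6 each), with a 95% interval of the log2 fold change from -0.14 to 0.10. DUSP22, a modulator of JNK signalling, averaged 31.5 ± 4.45 TPM in hyperoxia and 32.1 ± 3.29 TPM in normoxia, with an interval from -0.23 to 0.17. DUSP23 averaged 28.9 ± 3.31 TPM in hyperoxia and 29.4 ± 0.964 TPM in normoxia, with an interval from -0.17 to 0.11. DUSP18, DUSP28 and DUSP19 did not pass either, with limma adjusted p between 0.717 and 0.767. DUSP18 averaged 6.87 ± 0.729 TPM in hyperoxia and 6.58 ± 1.08 TPM in normoxia, and on the opposite strand it overlaps SLC35E4 (mean 9.94 TPM) in GENCODE 29. DUSP28 averaged 2.895 ± 0.551 TPM in hyperoxia and 3.03 ± 0.312 TPM in normoxia and overlaps ANKMY1 in the same way. The labels do not settle whether counting used strand, so the levels of both are uncertain. DUSP13 reached at most 0.18 TPM in hyperoxia and 0.18 TPM in normoxia, and DUSP21, DUSP26 and DUSP27 were listed at 0 in all 12 samples.

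**Figure D3:**
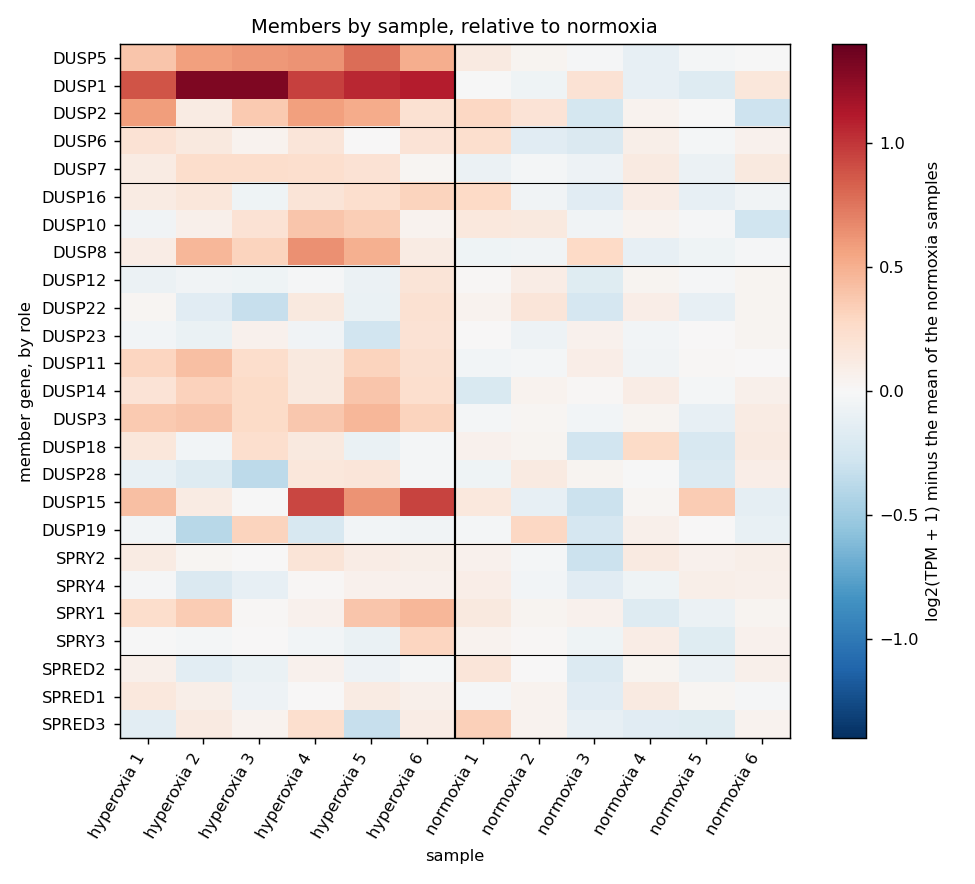
Difference of log2(TPM + 1) from the normoxia mean (colour) for the 25 most abundant of the 31 genes (y, grouped by role) in each of the 12 samples (x, hyperoxia left of the black line, normoxia right). DUSP1, DUSP5, DUSP3, DUSP11 and DUSP14 have every hyperoxia sample above every normoxia sample, and in the rows of the other genes the colours of the groups overlap.

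Sprouty proteins block signalling from receptors to RAS and RAF, and SPRY2 and SPRY4 are known as transcripts of ERK feedback. None of the 3 tested Sprouty genes passed, against 17.3% of all genes tested in either direction, and 3 genes are too few to set against that share. SPRY2 (ENSG00000136158, chromosome 13) measured from 40.1 to 45.5 TPM with a median of 42.6 TPM in hyperoxia, and from 32.1 to 43.5 TPM with a median of 41.7 TPM in normoxia. The lowest value was that of normoxia replicate 3, and the groups overlapped. Its log2 fold change was 0.09 with a 95% interval from -0.05 to 0.23 (limma, Benjamini-Hochberg adjusted p = 0.40).

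SPRY4 (ENSG00000187678, chromosome 5) measured from 15.8 to 19.1 TPM with a median of 18.4 TPM in hyperoxia, and from 16.3 to 19.6 TPM with a median of 18.6 TPM in normoxia. The interval of its log2 fold change ran from -0.16 to 0.10 (limma, Benjamini-Hochberg adjusted p = 0.768). SPRY1 (ENSG00000164056, chromosome 4), which restrains growth factor signalling during kidney development in mice, measured from 3.47 to 5.11 TPM with a median of 4.44 TPM in hyperoxia, and from 2.89 to 3.86 TPM with a median of 3.54 TPM in normoxia. Its log2 fold change of 0.25 (SE 0.09) did not pass (limma, Benjamini-Hochberg adjusted p = 0.0778), and it passed in 1 of 22 alternatives, the fit without hyperoxia replicate 3 (limma, adjusted p = 0.0427, over the 22 from 0.0427 to 0.3801). SPRY3 was at or below 0.71 TPM in hyperoxia and 0.49 TPM in normoxia.

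None of the 3 SPRED genes passed, and their groups overlapped. Over all genes tested 17.3% passed in either direction, and 3 genes are too few to set against that share. SPRED1 (ENSG00000166068, chromosome 15), the gene mutated in Legius syndrome, a disorder of the RAS pathway, averaged 10.6 ± 0.629 TPM in hyperoxia and 10.2 ± 0.729 TPM in normoxia (SD, n = 6 each). SPRED2 (ENSG00000198369, chromosome 2) averaged 23.9 ± 1.502 TPM in hyperoxia and 24.5 ± 2.202 TPM in normoxia, and SPRED3 (ENSG00000188766, chromosome 19) averaged 9.15 ± 1.39 TPM in hyperoxia and 9.103 ± 1.43 TPM in normoxia. The 95% intervals of the log2 fold changes ran from -0.06 to 0.18 for SPRED1, from -0.17 to 0.10 for SPRED2 and from -0.22 to 0.24 for SPRED3. The fold changes measured for DUSP1, DUSP3, DUSP5, DUSP11 and DUSP14 lie outside all 3 intervals. That of DUSP7, at 0.178, lies inside the intervals of SPRED1 (up to 0.182) and SPRED3, so a rise of that size is within them.

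Without normoxia replicates 4 to 6 the same 6 genes rose and 0 fell in limma. The log2 fold change was then 1.06 for DUSP1 (limma, adjusted p = 0.000508), 0.54 for DUSP5 (limma, adjusted p = 0.00268) and 0.38 for DUSP3 (limma, adjusted p = 0.00315). DUSP1 lay between 6.48 and 8 TPM in normoxia replicates 1 to 3 and between 5.9 and 7.76 TPM in replicates 4 to 6. The authors' deposited table has 9 of the 22 genes higher at an adjusted p under 0.05 and 0 lower, with DUSP6, DUSP15 and DUSP16 beside the 6 named above. The share of all genes called in that table is not given here, so this count cannot be set against a background.

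**Figure D4:**
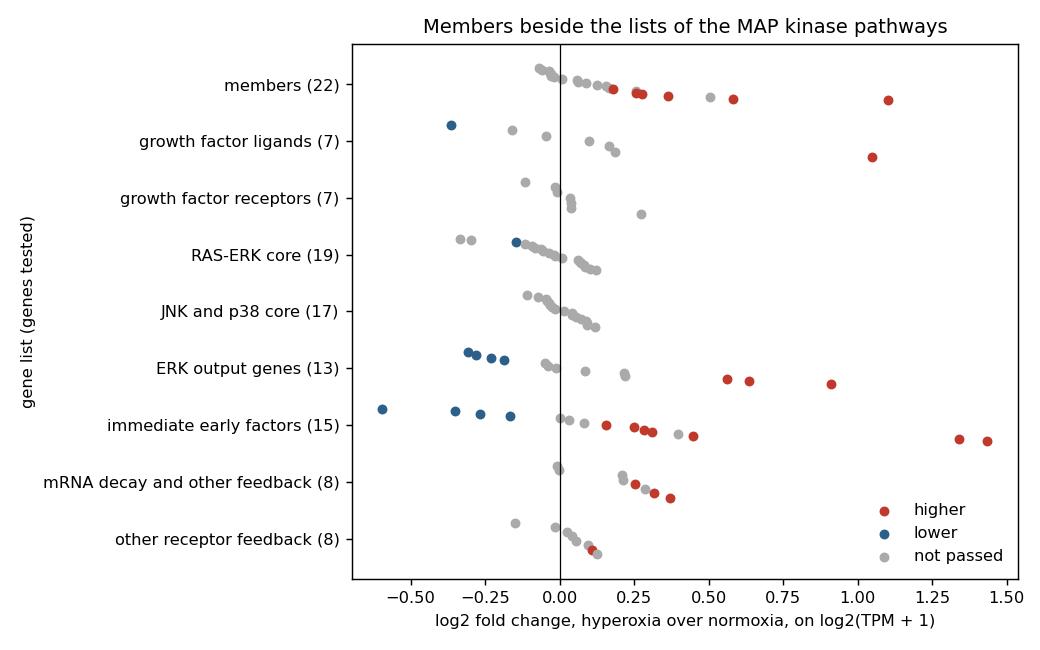
Log2 fold change of hyperoxia over normoxia on the log2(TPM + 1) scale (x) for the tested members and for 8 lists of genes of the MAP kinase pathways (y, with the number of genes tested), with 1 point per gene, coloured where it was higher or lower and grey where it did not pass. The JNK and p38 kinases lie between -0.11 and 0.12, while FOS at 1.44, FOSB at 1.34, DUSP1 at 1.10 and HBEGF at 1.05 lie far to the right.

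Genes around the phosphatases were read from lists of the pathway. Among 18 ligands of EGF and FGF receptors 7 were tested, 1 rose and 1 fell. This was 14.3% higher and 14.3% lower, against 11.7% and 5.63% over all genes tested. HBEGF (ENSG00000113070), which encodes a membrane-anchored ligand of the EGF receptor, measured from 13.1 to 20.2 TPM with a median of 17.1 TPM in hyperoxia, and from 6.87 to 8.24 TPM with a median of 7.73 TPM in normoxia. Its groups did not overlap, and the log2 fold change was 1.05 (limma, Benjamini-Hochberg adjusted p = 8.65e-06, SE 0.09). NRG2, a neuregulin gene, had a log2 fold change of -0.36 (limma, Benjamini-Hochberg adjusted p = 0.0242), a call lost in 6 of 23 alternatives, the fit without normoxia replicates 4 to 6 among them. NRG1 at -0.16 and FGF5 at 0.19 did not pass. In 6 of 23 alternatives, the 3 scalings among them, NRG1 did pass, and FGF5 did in 1 of 23.

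None of the 7 tested growth factor receptor genes passed in limma, against 17.3% of all genes tested in either direction. So short a list cannot be told apart from that share. EGFR averaged 21.2 ± 0.855 TPM in hyperoxia and 23.1 ± 2.12 TPM in normoxia, FGFR1 averaged 68.7 ± 3.99 TPM in hyperoxia and 67.1 ± 6.02 TPM in normoxia, and ERBB2 averaged 17.1 ± 1.64 TPM in hyperoxia and 16.6 ± 1.79 TPM in normoxia (SD, n = 6 each). FGFR4 stood at a log2 fold change of 0.27 (limma, Benjamini-Hochberg adjusted p = 0.0919). Among 19 core genes, from adaptors through RAS and RAF to ERK, HRAS alone passed, at -0.15 (limma, Benjamini-Hochberg adjusted p = 0.0405), and its call was lost in 14 of 23 alternatives. The list was thus 5.26% lower, against 5.63% of all genes tested. GAB1, an adaptor gene, at -0.33 did not pass, and without normoxia replicates 4 to 6 HRAS was lost and MAP2K2 was gained. Among 17 tested kinase genes of the JNK and p38 cascades 0 passed in limma and 0 had an unadjusted p under 0.05. Over all 14520 genes tested, 17.3% passed in either direction and 4451 had an unadjusted p under 0.05. MAP2K7 stood at 0.12, MAP2K3 at 0.09, MAP2K4 at -0.11 and MAP3K20 at 0.09.

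Of 13 tested transcripts that ERK signalling is known to raise, 3 rose and 4 fell. This was 23.1% higher and 30.8% lower, against 11.7% and 5.63% over all genes tested. EGR1, an early growth response factor, rose by 0.91 on the log2 scale (limma, Benjamini-Hochberg adjusted p = 1.01e-05), the sphingosine kinase gene SPHK1 by 0.56 and the cytokine gene IL11 by 0.64, or by 1.03 with a pseudocount of 0.1 TPM. PHLDA1 fell to 87.1 to 97.3 TPM in hyperoxia, against 99.6 to 126 TPM in normoxia (limma, Benjamini-Hochberg adjusted p = 0.00217). FOSL1 fell by 0.23, CCND1 (cyclin D1) by 0.19 and the ETS factor gene ETV1 by 0.28, and the ETV1 call was lost in 13 of 23 alternatives. ETV4 at 0.08, ETV5 at -0.05 and EPHA2 at -0.04, further readouts of ERK, did not pass. Without normoxia replicates 4 to 6 the list had 3 genes higher and 1 lower, and the calls of IL11, FOSL1, CCND1 and ETV1 were lost while IER3 was gained. IL11, CCND1, ETV1, ETV4, ETV5, EPHA2, IER3 and MAP2K2 are named after their values were seen.

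Of 15 tested immediate early transcription factor genes 7 rose and 4 fell. This was 46.7% higher and 26.7% lower, against 11.7% and 5.63% over all genes tested. FOS measured from 3.63 to 6.01 TPM with a median of 5.13 TPM in hyperoxia, and from 0.63 to 1.89 TPM with a median of 1.15 TPM in normoxia, a ratio of means of 4.15. FOSB measured from 1.4 to 4 TPM with a median of 3.03 TPM in hyperoxia, and from 0.26 to 0.69 TPM with a median of 0.445 TPM in normoxia, a ratio of means of 6.07. On the log2(TPM + 1) scale FOS rose by 1.44 (SE 0.14) and FOSB by 1.34 (SE 0.19), whereas a pseudocount of 0.1 TPM gave 2.00 for FOS and 2.32 for FOSB and so turned their order. JUNB rose by 0.45 (SE 0.06), and JUN, FOSL2, IER5 and SRF rose by 0.15 to 0.31. FOS, FOSB, JUNB, JUN, FOSL2 and IER5 did not overlap with hyperoxia above, and KLF2 did not overlap with hyperoxia below, against 6.2% and 2.58% of all genes tested. KLF2 fell by 0.59 (SE 0.07), KLF4 by 0.35, IER2 by 0.27 and KLF6 by 0.17. Without normoxia replicates 4 to 6 the list had 6 genes higher and 1 lower, and the calls of SRF, KLF4, IER2 and KLF6 were lost. Over 23 alternatives the call of KLF6 was lost in 12, that of SRF in 8 and that of KLF4 in 3, single samples left out among them for KLF6 and SRF. JUN, FOSL2, IER5, SRF, KLF4, IER2 and KLF6 are named after their values were seen.

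Of 8 tested genes of mRNA decay and related feedback 3 rose and 0 fell. This was 37.5% higher and 0% lower, against 11.7% and 5.63% over all genes tested. ZFP36L1 rose by 0.37, the stress gene GADD45A by 0.32 and ZFP36, which encodes a protein that destabilises the mRNAs of many early genes, by 0.25. NFKBIA at 0.21 did not pass (limma, Benjamini-Hochberg adjusted p = 0.0541), but it did without normoxia replicates 4 to 6. Among 8 other feedback genes of receptor signalling PEBP1, which encodes an inhibitor of RAF, rose by 0.11 (limma, Benjamini-Hochberg adjusted p = 0.0108), a call lost with TMM factors and without normoxia replicates 4 to 6. PEBP1 alone made up 12.5% of that list, against 11.7% higher over all genes tested. RASA2, SOCS3 and LRIG1 lay between -0.15 and 0.12 and did not pass.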

How the data were processed

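RNA of 12 H1299 samples, 6 in hyperoxia and 6 in normoxia, was given as 1 deposited table of genes. The authors deposited TPM per sample, group means, the fold (a linear ratio of hyperoxia over normoxia), the log2 of that fold, and a p-value with an adjusted p-value per gene. The submitters' processing notes name HTSeq 0.9.1 and edgeR 3.16.5 with no role. They also name a mouse genome build, although the identifiers are human Ensembl genes. For aligner, annotation and TPM method, no source used here gives them. The labels and the design text name different library kits. The table's file is named for FPKM and its columns for TPM; columns summed to 996138 to 998797 per sample.

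From the TPM, log2(TPM + 1) of the 14520 genes with a mean of at least 1 TPM was fitted with limma 3.58.1 (trend, R 4.3.3) over all 12 samples, with Benjamini-Hochberg adjustment over all of them and a threshold of 0.05. Fold changes on this scale understate changes of low genes. The script was tested on simulated data. In 78 rows the deposited log2 did not match the deposited fold within 1e-06, and 0 of them were members. The 1 row with no gene was left out, and 0 sample columns were unused. TMM factors were computed from the TPM by the published formula and serve only as an alternative scaling. Every member with a mean of at least 1 TPM is named, and of each pathway list the 4 tested genes with the smallest p; others are named where the text says so. A few listed genes are not reported here. The members and lists were chosen with earlier results of these data known. Alternatives were another pseudocount (0.1), no filter and a minimum of 5 TPM, 3 scalings, no trend, a replicate block, an exact rank-sum test and fits with samples left out. Gene positions come from GENCODE 29 by identifier and promoters from RefSeq.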

Additional observations from a re-analysis of the deposited data

Results flagged for a closer look

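Of 44 groups of 6 samples examined, those of the 22 tested members, 1 held a sample far from the others, and chance gives about 1 in 20. DUSP12 measured 53.78 TPM in hyperoxia replicate 6, against 44.39 to 46.54 TPM in the other 5 hyperoxia samples. The gap made up 0.771 of the group's range. DUSP12 did not pass the test with this sample or without it (limma, adjusted p = 0.858 with it and 0.422 without it).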

How the results depend on the processing

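DUSP1, DUSP5, DUSP3, DUSP11 and DUSP14 kept their calls in all 23 alternatives, and DUSP7 lost its call in 16. Of the 16 members that did not pass, 14 kept that side throughout, and 0 members reversed. Members counted higher numbered 5 to 6 over the 11 alternatives that did not leave out single samples, and 5 to 7 when single samples were left out; 0 were lower in either. Over all genes, leaving out single samples gave 1317 to 1563 higher and 602 to 937 lower, against 1698 and 818 with all samples. Median-of-ratios scaling gave 1277 lower, TMM factors 1281 and the exact rank-sum test 515. Without normoxia replicates 4 to 6 there were 980 higher and 374 lower. The cause was not tested. Samples with the same replicate number did not deviate together (0 of 6 correlations over 0.1, from -0.117 to 0.0169, and 1 of 6 samples correlated best with its own number). These values cannot settle whether samples were handled in pairs. A replicate block gave 1656 genes higher and 889 lower, and 5 members higher and 0 lower. Depth is unknown from TPM, and the 9 members under 1 TPM were not tested.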
